A study of Mus musculus with 47 samples.

Results

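The 10 genes described here mark or serve the endothelium, the cell layer that lines blood vessels: Cdh5, Pecam1, Kdr, Flt1, Tek, Tie1, Eng, Ramp2, Ace and Vwf. They were taken by name, and every probe set that the array annotation pairs with one of them was followed in all 6 array tables. This gave 23 probe sets out of 49372 on the arrays, and 10 genes out of 17453. Of the 23 probe sets, 2 were annotated to a second gene as well and are given by their ID. The values come from whole mouse lung, measured on Affymetrix murine U74 oligonucleotide arrays.

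Mice were sensitized on days 0 and 3 and given an intratracheal challenge on days 10 and 17. Lungs were collected 24 h or 72 h after the last challenge. The 4 groups were ragweed at 24 h, PBS at 24 h, ragweed at 72 h and PBS at 72 h, with 2 samples each, coded 1a and 1b. Ragweed mice received pollen protein of that plant, mixed with the adjuvant alum when they were sensitized, and PBS mice received buffered saline at both steps. Alum is named for the ragweed mice alone, so ragweed and alum cannot be told apart in these groups. Strain, age and sex are not given in the sources used here. Nothing in the labels says that 1a and 1b were separate animals. The p-values therefore reflect the spread between these samples alone, and that spread may be technical.

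The lung holds one of the densest capillary beds of the body, and its endothelium forms a thin barrier between blood and air. Cadherins hold the cells of this barrier together, receptors for Vegf and angiopoietin ligands control their survival and permeability, and surface enzymes and stored adhesive proteins act on passing blood. All arrays were used at a common scale, so a level here is relative to the RNA of all lung cells together. In whole lung, fewer endothelial cells and less RNA per endothelial cell cannot be told apart, nor can either from a change in the RNA of other cells.

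Arrays have no sequencing depth, and precision is limited by how many were run. The A array, which carries most of the members, was used in its first version for all 4 groups. Its ragweed arrays had been deposited at a trimmed mean intensity of 800, whereas its PBS arrays ran from 224.7 to 376.5 and were brought to the same level here, so on that table the deposited scale moved with the treatment. On the version 2 A arrays, which cover 3 of the groups, every array had been deposited at the same scale. Replicate arrays correlated with r from 0.899 to 0.922 on first-version A, 0.802 to 0.860 on version 2 B and 0.727 to 0.882 on version 2 C. The 3'/5' ratio of the beta-actin control probe sets lay between 0.798 and 0.968 on all first-version A arrays. On version 2 A it was 0.578 to 0.801 for ragweed at 72 h and 0.189 to 0.198 for PBS at 72 h. On version 2 C, which carries Flt1 167596_at, Kdr 135757_at and Adm, the ratio was 1.43 to 1.6 in ragweed lungs at 24 h, against 0.993 to 1.08 in PBS lungs, and 1.11 to 1.39 at 72 h, against 0.861 to 0.869 in PBS lungs. Version 2 B carries Flt1 106503_at, Eng 116170_at and Plvap, and gave 1.08 to 1.09 in ragweed lungs at 24 h, against 0.465 to 0.708 in PBS lungs, with overlapping ratios at 72 h (0.831 to 1.10 in ragweed lungs, against 0.813 to 0.919 in PBS lungs). The part of these ratios in the results was not tested. Each table was given a floor at its 40th percentile, and probe sets above that level on at least 2 arrays were tested with limma. A probe set was called at an adjusted p under 0.05 over all 25250 tested, and ± gives the standard error of a log2 difference, ragweed minus PBS.

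Of the defining endothelial markers, Cdh5, Tek, Tie1 and Kdr were above the floor in 8 of 8 samples, and Pecam1 in 3 of 8. Over both times, Cdh5 and the brighter Kdr probe set were called lower and Vwf was called higher in ragweed lungs. At 72 h Ramp2 was called lower. Each of these calls was lost when any 1 of the 8 samples was left out, although the differences kept their sign. The dimmer Kdr probe set had a positive difference over both times and was not called. On version 2 A the Ramp2 groups overlapped at 72 h. No member was called at 24 h. Ace had no tested probe set on the main tables. The other genes, Tek, Tie1, Flt1, Eng and Pecam1, were not called in any comparison.

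Cdh5 encodes VE-cadherin, the adhesion protein of endothelial junctions. Its intensity was 7292 and 6446 in ragweed lungs at 24 h, against 9922 and 9779 in PBS lungs at 24 h. At 72 h it was 7854 and 8289 in ragweed lungs, against 13451 and 10770 in PBS lungs. All 4 ragweed samples lay below all 4 PBS samples. The log2 difference was -0.52 ± 0.12 at 24 h (adjusted p = 0.223) and -0.58 ± 0.12 at 72 h (adjusted p = 0.121). Over both times Cdh5 fell by 31.7%, a log2 difference of -0.55 ± 0.085 (adjusted p = 0.0353). Leaving out any 1 of the 8 samples ended this call while the difference stayed between -0.63 and -0.47, and over all 16 alternatives the adjusted p ran from 0.0125 to 0.195. The version 2 A arrays gave 8385 and 9317 in ragweed lungs at 72 h, against 14667 and 12268 in PBS lungs, again without overlap (-0.60 ± 0.15, adjusted p = 0.258).

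Pecam1, which encodes the junctional adhesion protein CD31, was close to the floor of 343.2. Ragweed lungs had 360 and 249 at 24 h, against 561 and 166 in PBS lungs, and 1147 and 209 at 72 h, against 187 and 245 in PBS lungs. The ragweed 72 h sample 1a stood alone on both array versions, with 535 on version 2 A, where its partner had 117 and the PBS lungs had 189 and 109. The replicates differed more than the groups did, and the log2 difference at 72 h was 0.87 ± 0.49 (adjusted p = 0.652). This single probe set therefore gave no measured level of Pecam1 in most samples.

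**Figure D1:**
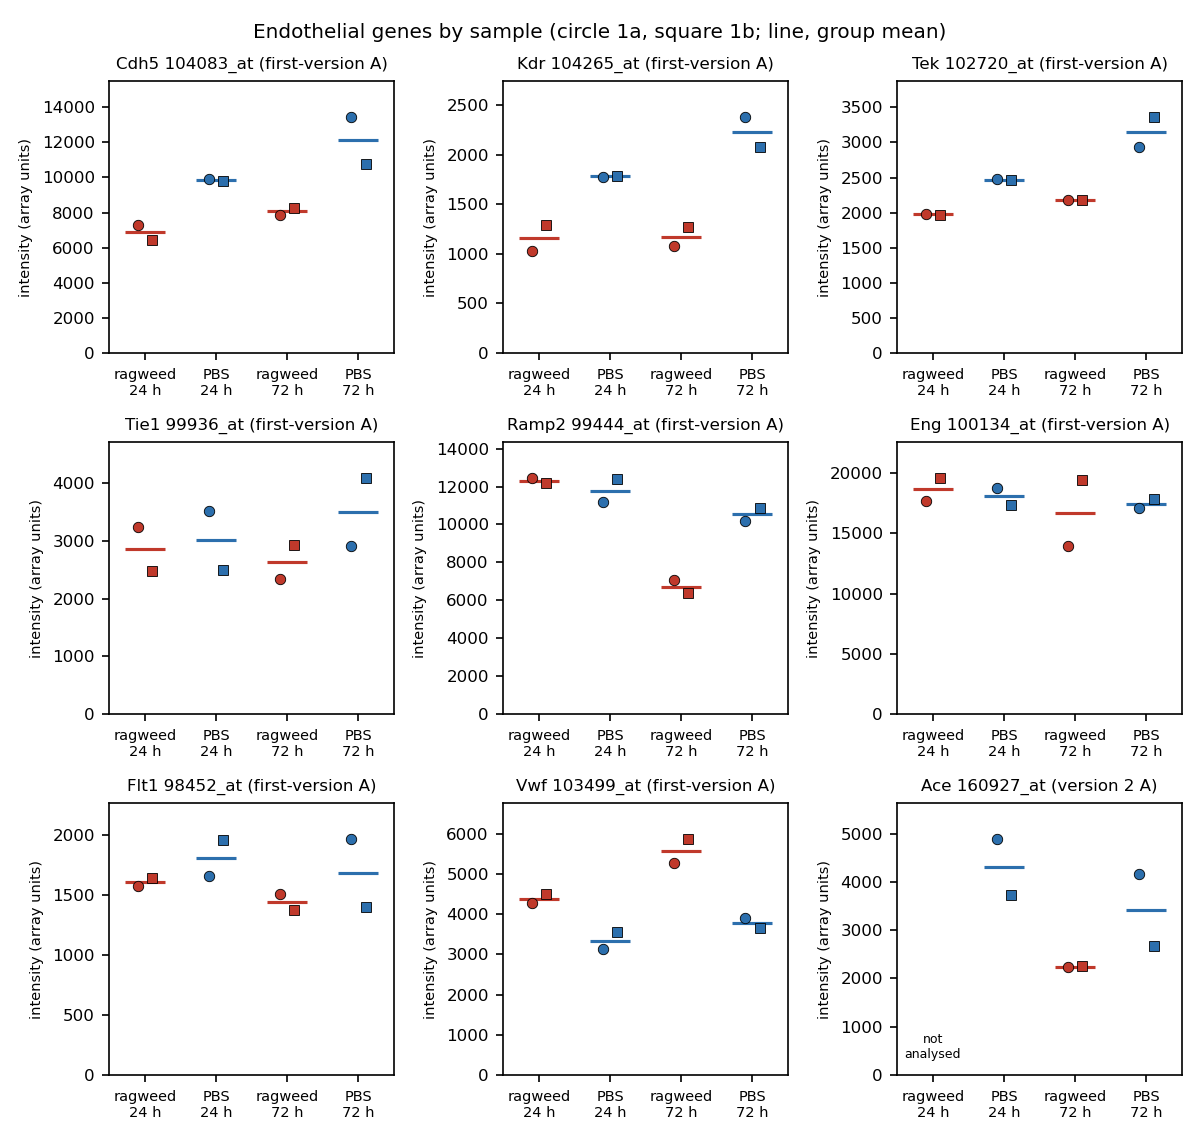
Intensity (array units, vertical axes from 0) of 9 member genes in each sample, by group; circles are sample 1a, squares sample 1b, and lines the group means of 2 samples. Cdh5, Kdr and Tek were lower in all 4 ragweed samples than in all 4 PBS samples, Vwf was higher in all 4, and Ramp2 stood apart in the ragweed samples at 72 h. Ace is shown from version 2 A, where ragweed at 24 h was not analysed.

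Kdr and Flt1 encode the Vegf receptors 2 and 1. Vegfr2 carries most of the growth and permeability signal in endothelium, and Vegfr1 binds the same ligand tightly while signalling weakly. The Kdr probe set 104265_at had 1029 and 1293 in ragweed lungs at 24 h, against 1781 and 1787 in PBS lungs. At 72 h it had 1077 and 1267 in ragweed lungs, against 2383 and 2080 in PBS lungs. The 4 ragweed samples thus lay between 1029 and 1293, and the 4 PBS samples between 1781 and 2383. Over both times Kdr fell by 41.8%, a log2 difference of -0.78 ± 0.13 (adjusted p = 0.0464). The 2 times taken singly gave -0.63 ± 0.18 at 24 h (adjusted p = 0.340) and -0.93 ± 0.18 at 72 h (adjusted p = 0.100). Without any 1 sample the call over both times was lost, with differences from -0.86 to -0.70, and the adjusted p ran from 0.0167 to 0.207 over 16 alternatives. On version 2 A Kdr had 1908 and 2119 in ragweed lungs at 72 h, against 4093 and 3087 in PBS lungs (-0.82 ± 0.16, adjusted p = 0.162).

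A second Kdr probe set, 135757_at on the version 2 C array, went the other way. It had 255 and 502 in ragweed lungs at 24 h, against 101 and 125 in PBS lungs, and 246 and 148 in ragweed lungs at 72 h, against 84 and 92 in PBS lungs. All 4 PBS values lay below the floor of 244.7, so its fitted difference at 24 h, 0.55 ± 0.30 (adjusted p = 0.695), depends on the floor. This probe set was above the floor in 3 of 8 samples, all ragweed, so it was tested only through the group where it was high. Without the ragweed 24 h sample 1a its difference was 1.04, from a single array against PBS values at the floor. The 2 probe sets of Kdr differed in sign over both times, but 135757_at gave no measured level in PBS lungs. Only 104265_at was bright in every sample.

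Flt1 was read by 5 single-gene probe sets over the 6 tables, none of them called. The probe set 98452_at had 1575 and 1637 in ragweed lungs at 24 h, against 1661 and 1960 in PBS lungs, and 1508 and 1373 at 72 h, against 1966 and 1402 in PBS lungs. Its log2 difference was -0.17 ± 0.20 at 24 h and -0.21 ± 0.20 at 72 h, with a 95% confidence interval at 72 h from -0.66 to 0.24. The probe set 167596_at had 4940 and 2225 in ragweed lungs at 24 h, against 4284 and 4871 in PBS lungs. At 72 h the same probe set had 2399 and 3036 in ragweed lungs, against 6254 and 4430 in PBS lungs, a difference of -0.96 ± 0.36 (adjusted p = 0.426). Over both times the difference of 167596_at was -0.71 ± 0.26 (adjusted p = 0.355). The other tested probe sets gave -0.36 ± 0.51 and -0.26 ± 0.51 (106503_at) and 0.10 ± 0.48 and 0.61 ± 0.48 (98453_at) at 24 h and 72 h. On the first-version C array 140892_at had 317 and 966 in ragweed lungs at 24 h, against 802 and 691 in PBS lungs, and 781 and 1139 at 72 h, against 910 and 766 in PBS lungs, which overlapped at both times. The version 2 A array gave 98452_at 1146 and 1349 in ragweed lungs at 72 h, against 2490 and 1410 in PBS lungs, without overlap (-0.59 ± 0.26, adjusted p = 0.509). Flt1 therefore had no direction shared by its probe sets, and 98453_at changed sign on version 2 A (-0.18 ± 0.25 at 72 h).

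The proximal promoters of these 2 receptors are shown because their genes sit on one chromosome, bind the same ligand and gave different calls. No test compared the changes of these 2 genes. The sequences cover 250 bases before the transcription start in RefSeq (GRCm38.p6, both on the minus strand, 5' to 3' along the gene). Of the 10 members, 6 were matched there. Capitals mark GGAA, the core of Ets family sites, or TTCC, the same letters on the opposite strand.
Kdr, chr5:75978456-75978705: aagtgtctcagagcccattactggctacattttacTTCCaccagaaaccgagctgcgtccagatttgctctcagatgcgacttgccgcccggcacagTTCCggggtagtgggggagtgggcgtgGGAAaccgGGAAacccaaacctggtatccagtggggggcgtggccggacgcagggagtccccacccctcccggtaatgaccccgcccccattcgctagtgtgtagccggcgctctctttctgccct
Flt1, chr5:147726012-147726261: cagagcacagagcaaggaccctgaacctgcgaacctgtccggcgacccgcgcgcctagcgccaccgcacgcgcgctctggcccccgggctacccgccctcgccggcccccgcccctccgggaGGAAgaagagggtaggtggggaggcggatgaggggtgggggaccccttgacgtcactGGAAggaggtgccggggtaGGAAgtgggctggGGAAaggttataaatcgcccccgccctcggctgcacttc
Each promoter held 4 matches to GGAA over both strands, which 93.5% of all 32841 promoters of this length hold at least once, with a median of 3. The longer form CCGGAA, which contains GGAA, occurred once in Kdr and not in Flt1, and 12% of all promoters hold it. AGGAAG, which also contains GGAA, occurred 0 times in Kdr and 2 times in Flt1, against 29.5% of all promoters. GGGCGG, the core of Sp1 sites, occurred 2 times in Kdr and 3 times in Flt1, and 32.7% of all promoters hold it. These matches are a description of the letters, and the arrays measured no binding.

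Tek (Tie2) is the receptor of the angiopoietins, and Tie1 is its partner receptor without a well-defined ligand of its own. Tek had 1985 and 1969 in ragweed lungs at 24 h, against 2473 and 2467 in PBS lungs, and 2181 and 2182 in ragweed lungs at 72 h, against 2928 and 3363 in PBS lungs. The groups did not overlap over the 4 ragweed and 4 PBS samples, but Tek was not called: -0.32 ± 0.12 at 24 h (adjusted p = 0.491), -0.52 ± 0.12 at 72 h (adjusted p = 0.160) and -0.42 ± 0.085 over both times (adjusted p = 0.0941). On version 2 A the 72 h difference was -0.28 ± 0.11 (adjusted p = 0.444), from 2217 and 2322 in ragweed lungs against 2837 and 2683 in PBS lungs. Tie1 had 3238 and 2488 in ragweed lungs at 24 h, against 3529 and 2506 in PBS lungs, and 2350 and 2937 at 72 h, against 2914 and 4097 in PBS lungs. Its groups overlapped at both times, and the difference over both times was -0.23 ± 0.17 (adjusted p = 0.651, 95% confidence interval from -0.61 to 0.15). The same Tie1 probe set gave -0.07 ± 0.18 at 72 h on version 2 A. Another Tie1 probe set there, 161184_f_at, had 2080 and 1854 in ragweed lungs at 72 h, against 3221 and 2132 in PBS lungs, without overlap (-0.42 ± 0.21, adjusted p = 0.573).

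Eng encodes endoglin, a co-receptor for Bmp and Tgf-beta ligands on endothelium. Its brightest probe set, 100134_at, had 17694 and 19600 in ragweed lungs at 24 h, against 18798 and 17379 in PBS lungs. At 72 h it had 13968 and 19465 in ragweed lungs, against 17125 and 17828 in PBS lungs. These groups overlapped at both times (0.04 ± 0.15 at 24 h and -0.08 ± 0.15 at 72 h). On version 2 A the same probe set had 15892 and 14140 in ragweed lungs at 72 h, against 11016 and 10023 in PBS lungs, a difference of 0.51 ± 0.14 without overlap (adjusted p = 0.302). The 2 array versions thus gave Eng different signs at 72 h. A second probe set, 116170_at, gave -0.25 ± 0.25 at 24 h and -0.24 ± 0.25 at 72 h. Another, 99003_at, is carried by the first version alone and was not tested, with 806 and 947 in ragweed lungs at 24 h, against 1266 and 1033 in PBS lungs, and 698 and 423 at 72 h, against 796 and 654 in PBS lungs.

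Ramp2 is the receptor activity-modifying protein that makes the calcitonin receptor-like receptor, encoded by Calcrl, a receptor for adrenomedullin. Ragweed lungs at 24 h had 12457 and 12175, against 11196 and 12376 in PBS lungs, which overlapped. At 72 h ragweed lungs had 7072 and 6380, against 10178 and 10884 in PBS lungs. The ragweed samples at 72 h were below the other 6 samples. At 72 h Ramp2 fell by 36.2%, a log2 difference of -0.65 ± 0.095 (adjusted p = 0.0315). At 24 h the difference was 0.07 ± 0.095 (adjusted p = 0.899, 95% confidence interval from -0.15 to 0.28). The difference between the times, 72 h minus 24 h, was -0.71 ± 0.13 and was not called (adjusted p = 0.258), so a fall particular to 72 h was not established. The 72 h call was made in 6 of 19 alternatives and in 0 of the 8 that left out 1 sample, over which the difference ran from -0.72 to -0.57. The adjusted p of these 19 alternatives ran from 0.00641 to 0.682. On version 2 A the groups overlapped at 72 h, with 7525 and 6759 in ragweed lungs, against 10720 and 7477 in PBS lungs (-0.33 ± 0.21, adjusted p = 0.682).

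Ace, the angiotensin-converting enzyme of the lung capillary surface, was measured above the floor on version 2 A alone. Its probe set 160927_at had 2239 and 2255 in ragweed lungs at 72 h, against 4173 and 2669 in PBS lungs at 72 h. PBS lungs at 24 h had 4892 and 3735. The ragweed samples lay below all 4 PBS samples, and the 72 h difference was -0.57 ± 0.22 (adjusted p = 0.458). The probe set 161224_f_at had 444 and 752 in ragweed lungs at 72 h, against 1097 and 546 in PBS lungs, which overlapped. The probe set 101428_at was above the floor in 1 of 8 samples on first-version A.

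Vwf encodes von Willebrand factor, which endothelium stores and releases to hold platelets and carry factor VIII. It was the one member called higher. The probe set 103499_at had 4276 and 4492 in ragweed lungs at 24 h, against 3122 and 3547 in PBS lungs, and 5278 and 5868 in ragweed lungs at 72 h, against 3900 and 3647 in PBS lungs. All 4 ragweed samples lay above all 4 PBS samples. Over both times Vwf rose 1.39-fold, a log2 difference of 0.48 ± 0.078 (adjusted p = 0.0438). The single times gave 0.40 ± 0.11 at 24 h (adjusted p = 0.305) and 0.56 ± 0.11 at 72 h (adjusted p = 0.100). No call over both times was left without any 1 of the samples, with differences from 0.43 to 0.53 and an adjusted p from 0.0153 to 0.194 over 16 alternatives. Version 2 A gave 5534 and 5446 in ragweed lungs at 72 h, against 4000 and 3528 in PBS lungs (0.55 ± 0.17, adjusted p = 0.358). A second probe set, 97052_at, stayed below the floor in every sample of both versions. Megakaryocytes also make Vwf, and their marker Pf4 was above the floor in 3 of 8 samples, with log2 differences of 0.14 at 24 h and -0.15 at 72 h. The summed level of the 4 measured platelet genes was 1102 to 1936 in ragweed lungs at 24 h, against 1552 to 1669 in PBS lungs, and 1245 to 1790 at 72 h, against 1927 to 2579 in PBS lungs.

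**Figure D2:**
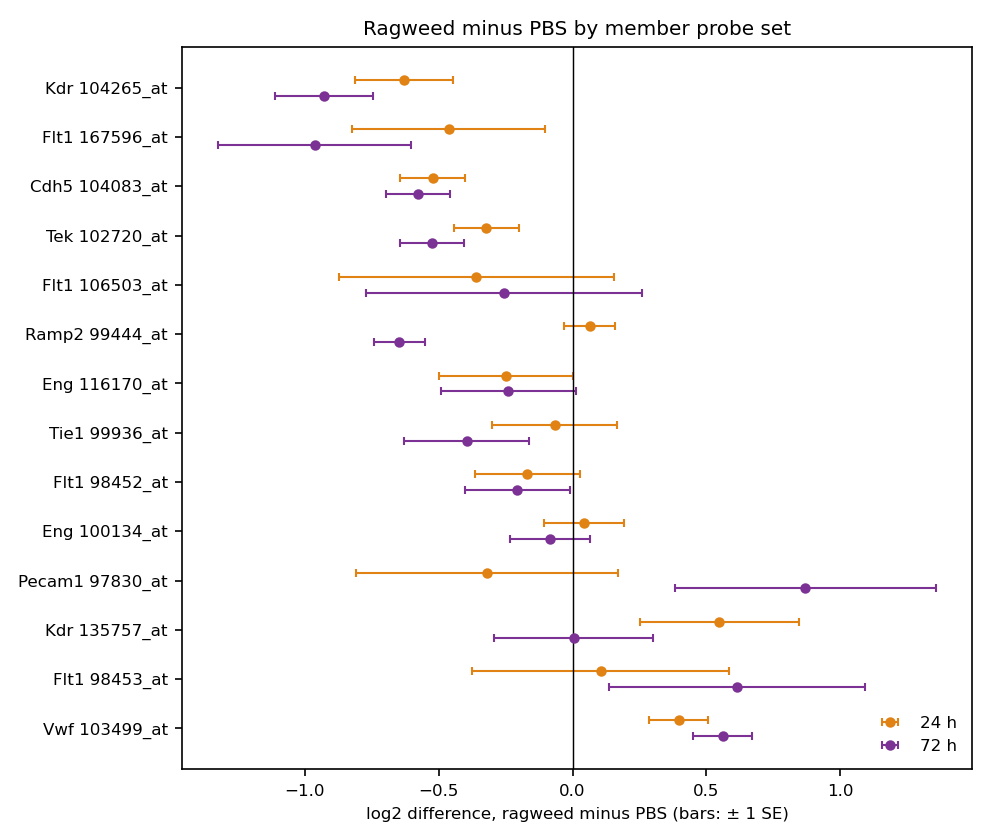
Log2 difference, ragweed minus PBS, at 24 h (orange) and 72 h (purple) for the 14 tested probe sets annotated to a single member; bars are 1 standard error, 2 samples per group. Kdr 104265_at, Cdh5 and Tek lie left of 0 and Vwf right of 0 at both times, while Ramp2 lies left of 0 at 72 h alone.

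Counted over the members, 14 single-gene probe sets of 9 genes were tested on the main tables. At 24 h limma called 0 of them, where 0.230% of all tested probe sets were called. At an unadjusted p under 0.05, 3 were lower (4.30% of all tested) and 1 was higher (4.38%), and the median log2 difference of the 14 was -0.21. Groups did not overlap for 4 probe sets that were lower (17.8% of all tested) and 2 that were higher (16.3%). The 2 higher included Kdr 135757_at, whose PBS values all lay below the floor. At 72 h 1 was called, Ramp2, against 0.527% of all tested. At that time 6 probe sets were lower without overlap (17.8% of all tested) and 1 was higher (18.0%), and the median was -0.25. At an unadjusted p under 0.05, 5 were lower (5.09% of all tested) and 1 was higher (4.54%). Over both times 3 were called, 2 lower and 1 higher, against 0.650% of all tested (0.186% lower and 0.463% higher). All 4 ragweed samples lay below all 4 PBS samples for 3 probe sets (2.36% of all tested) and above them for 1 (2.20%). The median of the 14 probe sets over both times was -0.24. With 1 probe set per gene, the median of the 9 members was -0.23, against -0.01 for the 12840 genes represented on the arrays. Per gene, 7 of the 9 measured members had a negative difference over both times.

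The difference between the times was called for 0 of the 14 probe sets by limma, against 0.0356% of all tested, and 1, Ramp2, was lower at an unadjusted p under 0.05 (3.78% of all tested). PBS lungs at 72 h against PBS lungs at 24 h also gave 0 calls, against 0.281% of all tested, with 2 higher at an unadjusted p under 0.05 (4.23% of all tested). These were Cdh5 (0.29 ± 0.12, adjusted p = 0.573) and Tek (0.35 ± 0.12, adjusted p = 0.475). PBS samples of 72 h lay above those of 24 h without overlap for 4 probe sets (17.5% of all tested) and below them for 1 (18.2%). On first-version A the PBS lungs at 72 h were the highest samples for Cdh5, Kdr and Tek, so the size of the 72 h difference depends on which PBS group is used. Against PBS lungs of 24 h, the 72 h difference was -0.29 for Cdh5, -0.61 for Kdr and -0.18 for Tek.

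The other array version, with version 2 A and the first-version B and C tables, measured 15 single-gene probe sets of all 10 members at 72 h. It called 0 of them with limma, against 0.237% of 26995 tested, with 4 lower and 2 higher at an unadjusted p under 0.05 (10.1% of all tested, in either direction). Without overlap between groups, 6 were lower (18.4% of all tested) and 2 were higher (17.5%). Of 11 A-array probe sets tested on both versions, 1 of them annotated to 2 genes, 8 kept their sign, among them those of Cdh5, Kdr, Tek, Ramp2 and Vwf. Both versions read the same samples, so this is a repeat of the measurement and not of the experiment.

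**Figure D3:**
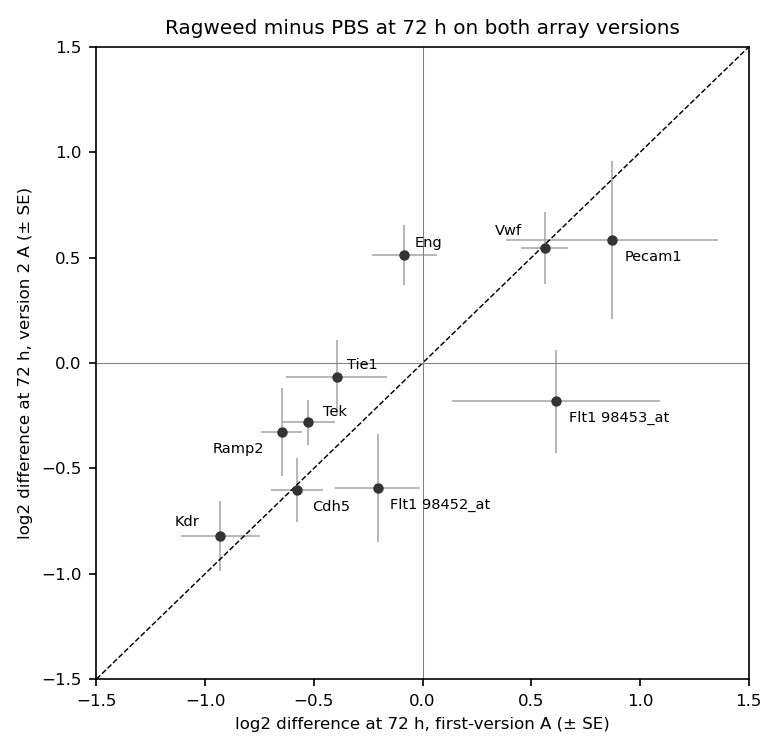
Log2 difference at 72 h, ragweed minus PBS, on first-version A (horizontal) and version 2 A (vertical) for the 10 single-gene probe sets tested on both; bars are 1 standard error and the dashed line marks equal values. Cdh5, Kdr and Vwf lie near the line, with -0.58 and -0.60, -0.93 and -0.82, and 0.56 and 0.55, whereas Eng and Flt1 98453_at changed sign.

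Among the members on first-version A, Cdh5, Kdr and Tek followed each other most closely over the 8 samples. Pearson's r was 0.898 between Cdh5 and Kdr, 0.877 between Tek and Kdr and 0.875 between Tek and Cdh5. Ramp2 did not share this profile (r = 0.05 with Cdh5 and 0.30 with Kdr), and Vwf ran against both Kdr (r = -0.67) and Ramp2 (r = -0.77). The most negative r, -0.84, was between probe sets of the same gene, Flt1 98452_at and 98453_at. The samples share arrays and scaling, and the groups enter every r, so these values are a description with no test. The genes outside the list whose profile was most like the members' mean profile, over the same 8 samples and 10 member probe sets, were Usp39 (r = 0.968), Rpl22 (r = 0.962), Pttg1 (r = 0.934), Kif11 (r = 0.924) and Arrb1 (r = 0.910). The members themselves reached at most 0.81 with that mean (Tek), and Vwf had -0.65.

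Beyond the members, 106 further genes of blood vessels were listed, of which 84 were measured. Over both times limma called 2 of them lower (0.186% of all tested probe sets) and 0 higher (0.463%). At an unadjusted p under 0.05, 21 were lower (5.71% of all tested) and 3 were higher (5.43%). These counts are of genes with 1 probe set each, taken from the A array where possible. The shares are of all 25250 tested probe sets, including those of the B and C arrays, whose replicates correlated less. Counts and shares are therefore not like for like, and the part of this in the excess was not tested. The differences were negative for 60 of the 84 (71.4%), against 51.4% of all genes, and their median was -0.11. At 24 h 0 were called (0.230% of all tested), with 8 lower (4.30%) and 3 higher (4.38%) at an unadjusted p under 0.05. At 72 h 1 was called lower, where 0.527% of all tested were called in either direction. At that time 19 were lower (5.09% of all tested) and 4 higher (4.54%) at an unadjusted p under 0.05. The counts of single lists over both times stand beside the same shares of all tested probe sets, 5.71% lower and 5.43% higher at an unadjusted p under 0.05. Their calls over both times stand beside 0.650% of all tested called in either direction.

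The surface, junction and matrix list held 27 measured genes, of which 21 had a negative difference over both times and 1 was called. This was Hpgd, which encodes the enzyme that inactivates prostaglandins in the lung. It had 2031 and 1980 in ragweed lungs at 24 h, against 3139 and 4233 in PBS lungs, and 2397 and 2506 at 72 h, against 4466 and 4343 in PBS lungs. All 4 ragweed samples lay below all 4 PBS samples, and Hpgd fell by 0.85 ± 0.10 on the log2 scale over both times (adjusted p = 0.0135). The call was lost in 6 of the 8 repeats that left out 1 sample (each ragweed sample and each PBS 72 h sample), over which the difference ran from -0.96 to -0.75, and the adjusted p ran from 0.00426 to 0.141 over 16 alternatives. The 72 h difference on version 2 A was -0.78 ± 0.14 (adjusted p = 0.127). Plvap, the diaphragm protein of fenestrated and activated vessels, was the largest positive difference of that list. It had 13919 and 12754 in ragweed lungs at 24 h, against 8987 and 8623 in PBS lungs, and 13520 and 17809 at 72 h, against 11330 and 11406 in PBS lungs (0.52 ± 0.15, adjusted p = 0.212).

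Of 15 measured endothelial transcription factors, 13 had a negative difference over both times and 0 were called, with 5 lower and 1 higher at an unadjusted p under 0.05. Epas1 encodes the hypoxia-inducible factor HIF-2 alpha. It had 2412 and 2336 in ragweed lungs at 24 h, against 2277 and 3410 in PBS lungs, and 1290 and 1478 at 72 h, against 3038 and 2764 in PBS lungs (72 h difference -1.07 ± 0.19, adjusted p = 0.0728). Nr2f2, the factor of venous identity, went the other way, with 1860 and 1725 in ragweed lungs at 72 h, against 1094 and 865 in PBS lungs (0.88 ± 0.27, adjusted p = 0.303). In the aerocyte list, named for the specialised gas-exchange capillary cell, 4 of 6 genes had a negative difference over both times and 1 was called. At 24 h 5 of the 6 were negative (median -0.26) and at 72 h 5 of the 6 were positive (median 0.17), so that Tbx2 was alone in being lower at 72 h. Tbx2, a transcription factor that lung mesenchyme also uses, had 3333 and 3279 in ragweed lungs at 72 h, against 5720 and 4823 in PBS lungs. It fell by 0.67 ± 0.11 on the log2 scale at 72 h (adjusted p = 0.0499) and by 0.52 ± 0.077 over both times (adjusted p = 0.0320). Both calls ended without any 1 sample (-0.79 to -0.54 at 72 h and -0.58 to -0.46 over both times), and on version 2 A the 72 h difference was 0.073 ± 0.14 (adjusted p = 0.915), of the opposite sign. Car4, the carbonic anhydrase of aerocytes, had a difference of 0.24 ± 0.11 (adjusted p = 0.475).

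The ligands and partner receptors of the members were measured in 2 lists. None of 14 vascular growth factors was called by limma over both times, 9 of them had a negative difference, and 3 were lower at an unadjusted p under 0.05. Vegfd, a ligand of Flt4 that in humans also binds Kdr, had 1101 and 1546 in ragweed lungs at 24 h, against 1965 and 1884 in PBS lungs, and 870 and 925 at 72 h, against 1529 and 1355 in PBS lungs (-0.62 ± 0.15 over both times, adjusted p = 0.155). Vegfa, named after its values were seen because it is the main ligand of Kdr and Flt1, averaged 1889 in ragweed lungs and 2270 in PBS lungs at 24 h. At 72 h it averaged 1704 in ragweed lungs and 2657 in PBS lungs, and the difference over both times was -0.45 ± 0.10 (adjusted p = 0.132). Adm encodes adrenomedullin, the ligand of the receptor that Ramp2 and Calcrl form. It had 1183 and 1141 in ragweed lungs at 24 h, against 1307 and 894 in PBS lungs (0.10 ± 0.36), and 2031 and 1323 at 72 h, against 863 and 883 in PBS lungs (0.91 ± 0.36, adjusted p = 0.466). Its groups overlapped at 24 h, and the difference over both times was 0.51 ± 0.25 (adjusted p = 0.515).

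None of 17 other vascular receptors was called over both times, 12 had a negative difference, and 6 were lower and 0 higher at an unadjusted p under 0.05. Calcrl had 423 and 498 in ragweed lungs at 24 h, against 564 and 671 in PBS lungs, and 387 and 488 at 72 h, against 844 and 560 in PBS lungs. All 4 ragweed samples lay below all 4 PBS samples, with a difference of -0.54 ± 0.20 over both times (adjusted p = 0.368). Nrp1, the neuropilin that binds Vegfa beside Kdr, also lay lower in all 4 ragweed samples (-0.47 ± 0.10, adjusted p = 0.128). In the list of activated endothelium 2 of 5 measured genes had a negative difference and 0 were called by limma, with 1 lower at an unadjusted p under 0.05. Its selectins Sele and Selp were not tested. Cxcl12, a chemokine of vessel walls, had 1424 and 1323 in ragweed lungs at 72 h, against 2245 and 2307 in PBS lungs (-0.73 ± 0.14, adjusted p = 0.0880), and Vwa1, a matrix protein, had a difference of 0.49 ± 0.28 over both times (adjusted p = 0.561). Of 3 measured genes of lymphatic endothelium 0 were called, with 1 higher at an unadjusted p under 0.05. Its Lyve1, a hyaluronan receptor that macrophages share, had a difference of 0.48 ± 0.14 (adjusted p = 0.224) and Flt4, the receptor of Vegfd, -0.21 ± 0.12 (adjusted p = 0.576).

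**Figure D4:**
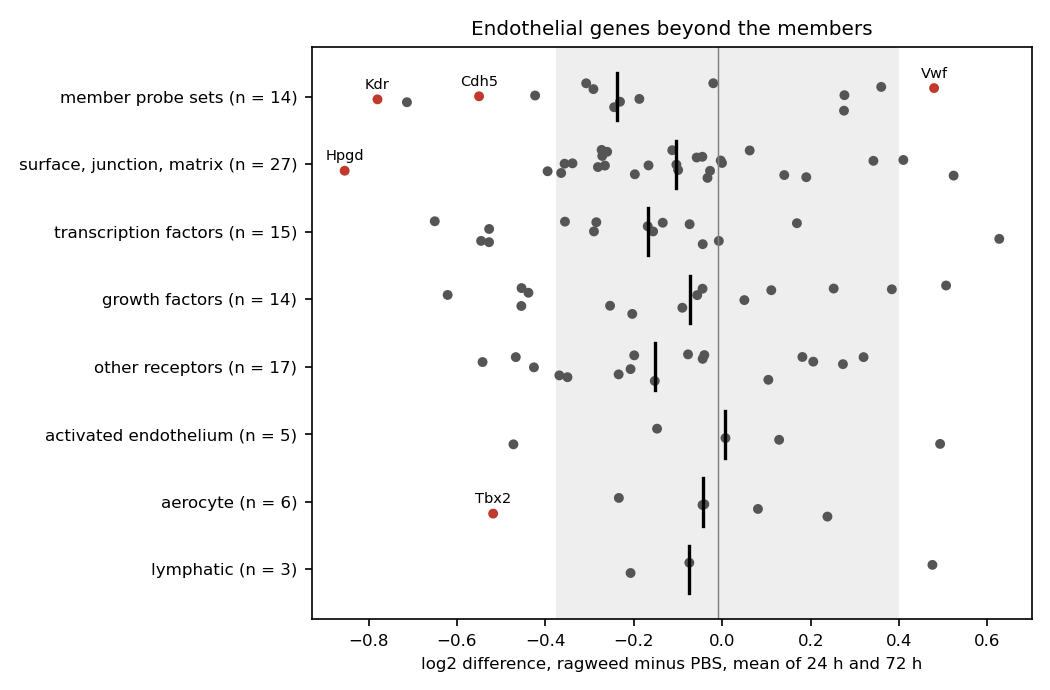
Log2 difference, ragweed minus PBS, as the mean of 24 h and 72 h, for the 14 member probe sets and for each measured gene of the other vascular lists; red points were called at an adjusted p under 0.05, short lines are list medians, and the grey band spans the 10th to 90th percentile of all 12840 genes (-0.37 to 0.40). Called points are Kdr, Cdh5, Hpgd and Tbx2 on the left and Vwf on the right.

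Marker genes of other lung cell types were measured beside the members. The summed intensity of the 9 measured member genes was 49906 to 50349 in ragweed lungs at 24 h, against 51967 to 53043 in PBS lungs, and 42436 to 47970 at 72 h, against 54316 to 55035 in PBS lungs. Most of each sum came from Eng, Ramp2 and Cdh5, which averaged 18647, 12316 and 6869 in ragweed lungs at 24 h. The sum therefore says little about the dimmer members. The 6 alveolar type I genes, from the epithelium that shares its wall with the capillaries, summed to 45857 to 48041 in ragweed lungs at 24 h, against 52733 to 56432 in PBS lungs, and 39787 to 41240 at 72 h, against 48762 to 49568 in PBS lungs. All 6 had a negative difference over both times and 0 were called. Fibroblast genes summed to 23920 to 24598 in ragweed lungs at 24 h, against 28146 to 30411 in PBS lungs. At 72 h they summed to 25640 to 26327, against 30036 to 35658. Leukocyte genes summed to 39009 to 40054 in ragweed lungs at 24 h, against 55887 to 65800 in PBS lungs. At 72 h they summed to 43022 to 52948, against 54796 to 59194. The alveolar type II and smooth muscle sums were higher in ragweed lungs at 72 h. Of the leukocyte genes 5 of 7 were negative over both times, of alveolar type II 1 of 6, of platelets 4 of 4 and of red blood cells 1 of 3, and 0 of them were called in any comparison by limma (at an unadjusted p under 0.05 over both times, 2 lower and 2 higher for leukocytes, 1 higher for alveolar type II, 0 for platelets and 1 lower for red blood cells).

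The 9 genes of these lists that were called in some comparison are named because they were called. All 6 fibroblast genes were negative over both times, and Col1a1, a fibrillar collagen chain, was called lower (-0.51 ± 0.068, adjusted p = 0.0211), although its 72 h difference was 0.17 ± 0.20 on version 2 A (adjusted p = 0.842) against -0.64 on first-version A. Smooth muscle and pericyte genes split, with 5 of 8 positive over both times. Notch3, a receptor of mural cells, was called lower over both times (-0.84 ± 0.12, adjusted p = 0.0227), and Acta2, the actin of smooth muscle, was called higher at 72 h (0.86 ± 0.13, adjusted p = 0.0337). At 72 h 1 gene of that list was lower and 3 were higher at an unadjusted p under 0.05. None of the calls of Col1a1 and Notch3 over both times and of Acta2 at 72 h was kept without any 1 of the 8 samples.

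Heart and skeletal muscle genes differed between the PBS groups as well. At 72 h 10 of 10 were negative (median -0.83), and the list summed to 20455 to 20882 in ragweed lungs, against 34848 to 38033 in PBS lungs. The 2 called lower were Nppa, the atrial natriuretic peptide (-1.48 ± 0.14, adjusted p = 0.00399), and Myl7, an atrial myosin light chain (-1.31 ± 0.17, adjusted p = 0.0209). At 24 h 5 of 10 were positive, and the sum was 20858 to 23132 in ragweed lungs, against 16449 to 17315 in PBS lungs. Acta1, the skeletal muscle actin, was called higher at 24 h (1.64 ± 0.13, adjusted p = 0.00127). PBS lungs at 72 h against PBS lungs at 24 h were higher for 10 of 10 of these genes (median 1.01), 9 of them at an unadjusted p under 0.05, with Acta1 called (1.94 ± 0.13, adjusted p = 0.00130).

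Club and ciliated airway genes were mostly positive at 24 h and mostly negative at 72 h. At 24 h 5 of 6 were positive (median 0.67), and the list summed to 101321 to 111685 in ragweed lungs, against 47582 to 50347 in PBS lungs. Most of each sum was Scgb1a1, which averaged 89185 in ragweed lungs and 37021 in PBS lungs at 24 h. The 2 called higher were Scgb1a1, the main secretory protein of club cells (1.27 ± 0.12, adjusted p = 0.00404), and Cyp2f2, a cytochrome P450 of club cells (0.65 ± 0.090, adjusted p = 0.0367). At 72 h 5 of 6 were negative (median -0.31), with Cyp2f2 called lower (-0.81 ± 0.090, adjusted p = 0.00894), and the sum was 102388 to 102546 in ragweed lungs, against 115471 to 126455 in PBS lungs. On version 2 A the 72 h difference of Cyp2f2 was 0.20 ± 0.15 (adjusted p = 0.734), of the opposite sign. Called higher in PBS lungs at 72 h than in PBS lungs at 24 h were Cyp2f2 (1.68 ± 0.090, adjusted p = 0.000655), Scgb1a1 (1.27 ± 0.12, adjusted p = 0.00570) and Scgb3a2, another club cell secretory protein (2.03 ± 0.30, adjusted p = 0.0164). Scgb1a1 was the brightest or next brightest probe set on every first-version A array except those of PBS at 24 h, so quantile normalization sets its values there. For Scgb1a1 version 2 A gave -0.63 ± 0.22 in that comparison (adjusted p = 0.497). Leaving out 1 sample at a time kept the 24 h call of Acta1 in 8 of 8 repeats, that of Scgb1a1 in 4 and that of Cyp2f2 in 0, and the 72 h call of Nppa in 4, of Cyp2f2 in 4 and of Myl7 in 0. The calls between the PBS groups were kept in 6 of 8 repeats for Cyp2f2, 5 for Acta1, 2 for Scgb1a1 and 1 for Scgb3a2. The PBS lungs at 72 h, highest for Cdh5, Kdr and Tek on first-version A, were thus also above the PBS lungs at 24 h in 10 of 10 muscle genes and 4 of 6 airway genes. The part of these shifts in the members' values was not tested.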

How the data were processed

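The authors deposited 1 linear intensity for each probe set of an array; their software is not stated in what was used here. Of 47 arrays 46 were distinct: an uncoded ragweed 24 h A array equalled the 1a array divided by 2.63 and was counted once. First-version A values, for the 9977 probe sets also on version 2 A, were brought to a 2% trimmed mean of 800, then quantile normalized on the log2 scale; those of version 2 B and C stayed as deposited. Values were raised to a floor of 343.2 (A), 356.4 (B) or 244.7 (C), the 40th percentile. Probe sets above it on at least 2 arrays were tested (6896, 9190 and 9164) with limma 3.58.1 in R 4.3.3: 1 mean per group over 8 samples, 4 residual degrees of freedom, eBayes with a trend, Benjamini-Hochberg over the 3 tables together. Values at the floor add no spread. No probe positions are given, since no build is stated.

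Gene symbols came from the array annotation. In the lists each gene had 1 single-symbol probe set. Named were all members, genes of the vascular lists called in any comparison and the 2 largest differences of each such list. Vegfa, Pf4, the selectins and the called genes of other cells' lists were named after their values were seen. The members, the lists and the test settings were chosen with earlier results of these data known. The codes 1a and 1b did not pair samples: 18 correlations of deviations ran from -0.061 to 0.052. The test was tried on simulated data, with changes added to brighter probe sets. Of log2 changes of 0.5 it recovered 0% at 24 h, 0% at 72 h and 2.94% over both times. Of changes of 1 it recovered 10.4%, 10.4% and 34.3%. A probe set that was not called may thus still differ. Alternatives left out samples, blocked on the code, or changed scaling, floor, filter, trend, adjustment, array version or PBS group.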

Additional observations from a re-analysis of the deposited data

Results flagged for a closer look

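The ragweed-minus-PBS difference was set apart between the 2 times for 3 marker genes of other lung cells and for none of the members by the same 2 criteria, a called difference between the times or groups apart in opposite directions. For Acta1, the skeletal muscle actin, the 72 h difference minus the 24 h difference was -2.31 (adjusted p = 0.00556), and for Cyp2f2, of club cells, it was -1.46 (adjusted p = 0.00868). Scgb3a2, also of club cells, was singled out because both ragweed samples lay above both PBS samples at 24 h and below them at 72 h. Its difference between the times was -2.40 and was not called (adjusted p = 0.114). All 3 genes were called higher in PBS lungs at 72 h than in PBS lungs at 24 h, with differences of 1.94 for Acta1, 1.68 for Cyp2f2 and 2.03 for Scgb3a2.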

How the results depend on the processing

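Among the member probe sets, the count called at 24 h was 0, and with PBS of the other time as reference it was 1 (Cdh5 lower). Without ragweed 24 h 1a, Kdr 135757_at set a single array against PBS values at the floor, so its result there is not counted. At 72 h the count was 1. It was 0 without any 1 sample, with trimmed-mean scaling alone, with no filter, with no mean-variance trend and on the other array version; it was 4 with p-values adjusted within each table (Cdh5, Kdr and Ramp2 lower, Vwf higher), and 2 (Ramp2 lower, Vwf higher) with PBS of the other time or of both times as reference. Over both times the count was 3, and it was 0 without any 1 sample, with no filter and with no trend. With the replicate code as a block, the replicate block gave 0 calls at 72 h and 1 over both times (Cdh5 lower). The same-code samples share only a code, so this block is not a pairing. Other floors and quantile normalization of all tables left 3 calls over both times, trimmed-mean scaling alone left 2 (Kdr lower, Vwf higher), and adjustment within each table gave 4, with Tek lower added. Of the 84 wider vascular genes, 0 were called at 24 h, with 0 to 1 when 1 sample was left out, 1 with p-values adjusted within each table or PBS of both times as reference, and 2 with PBS of the other time. At 72 h 1 was called, Tbx2, and this call was lost without any 1 sample. The count was 0 with the replicate block, trimmed-mean scaling, quantile normalization of all tables, the lower floor and the other array version. It was 3 with the higher floor, and 2, 4 and 5 with PBS of the other time, PBS of both times and adjustment within each table, each with Tbx2. No filter and no trend gave 1 each, but of other genes (Cxcl12 and Tgfbr3, both lower). Over both times 2 were called, Hpgd and Tbx2, and the repeats without 1 sample are given with these genes above. The count was 1 with the replicate block or trimmed-mean scaling (Hpgd) and 1 with no filter (Cxcl12, not called in the main test). It was 0 with no trend and 6 with adjustment within each table. On the other array version the 72 h difference turned positive for Tbx2 (0.073), Col1a1 (0.17) and Cyp2f2 (0.20), and the PBS difference of Scgb1a1 turned negative (-0.63). With PBS of the other time as reference, Cyp2f2 was -1.03 at 24 h and 0.87 at 72 h, Acta1 -0.30 at 24 h and 1.26 at 72 h, and Scgb1a1 1.18 at 72 h; with PBS of both times Cyp2f2 was -0.19 at 24 h and 0.029 at 72 h. The cause of these changes was not tested; leaving out a sample also leaves fewer samples. The difference between the times and the PBS comparison stayed at 0. Of the single member probe sets, the differences of Cdh5, Kdr and Vwf over both times and of Ramp2 at 72 h kept their sign in all alternatives. With 2 samples per group and array intensities near the floor for Pecam1, one Ace, one Vwf and one Kdr probe set, smaller differences could not be seen.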

Other observations

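The 2 probe sets annotated to Ramp2 and a second gene did not follow the Ramp2 probe set. The probe set 95480_at, annotated to Ramp2 and Vps25, had 1048 and 1021 in ragweed lungs at 24 h, against 1034 and 1375 in PBS lungs, and 940 and 915 at 72 h, against 1033 and 495 in PBS lungs. Its log2 difference at 72 h was 0.38 ± 0.35 on first-version A and -0.05 ± 0.24 on version 2 A. The probe set 117265_at, annotated to Malat1 and Ramp2, had 397 and 536 in ragweed lungs at 24 h, against 636 and 774 in PBS lungs, and 1169 and 731 at 72 h, against 551 and 889 in PBS lungs.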
